A study of Mus musculus with 6 samples.

Results

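The genes described here encode non-fibrillar collagens of soft connective tissue, the kind found in periosteum, suture and fascia. Members were taken by gene symbol, with no measured value used in the rule, from a list of 8 genes (Col6a1, Col6a2, Col6a3, Col8a1, Col12a1, Col14a1, Col15a1 and Col16a1), which was chosen with earlier results of these data known. Of these, 6 genes had 11 named probes, among 19057 genes with 34885 probes of a single symbol. Col6a3 and Col12a1 are not analysed here, because no probe carried their names. All 11 probes were detected on all 6 arrays, and all entered the test.

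RNA came from the calvaria, the roof of the skull, of FVB/N mice at postnatal day 3 and was hybridised to Illumina bead arrays. The 3 wild-type samples (WT) served as controls for 3 samples from mice that overexpress the microRNA miR-34c (TG), and both groups shared strain, age and tissue. The labels do not give the promoter or cell type that drives miR-34c, the number of founder lines, the sex of the pups, or whether a sample is 1 pup or a pool. They call the samples biological replicates. The p-values measure only the spread between these samples, with each probe's spread drawn toward that of all tested probes. The comparison asked which transcripts differ in the calvaria when miR-34c is in excess.

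Type VI collagen is assembled from chains encoded by Col6a1, Col6a2 and, in most tissues, Col6a3, and forms beaded microfilaments that lie close to cell surfaces in muscle, tendon, skin and the lining of bone. Types XII, XIV and XVI belong to the fibril-associated collagens, which sit on the surface of fibrils and link them to other matrix molecules. Type VIII is a short-chain collagen that builds hexagonal networks, best known from vessel walls and the Descemet membrane of the cornea, and type XV is a basement membrane zone collagen whose C-terminal fragment resembles endostatin.

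The microRNA changed in TG belongs to the miR-34 family, which is induced by p53 and pairs with target transcripts through its seed. The mature sequences are shown so that the seeds of the family can be read side by side. They are RefSeq sequences (GRCm38.p6), written 5′ to 3′ with the seed, bases 2 to 8, in capitals. The 3p strand of miR-34c, at chr9:51103044-51103065 on the minus strand, has the same seed as that of miR-34b, at chr9:51103574-51103595 on the minus strand. The 5p strands of miR-34a, at chr4:150068473-150068494 on the plus strand, and miR-34b, at chr9:51103610-51103632 on the minus strand, share another seed. miR-34c-5p is named only, since its sequence was not at hand, so its seed is not shown. The 3p strand of miR-34a, also not shown, has a seed that differs from both of those printed.
mmu-miR-34c-3p: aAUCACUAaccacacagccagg
mmu-miR-34b-3p: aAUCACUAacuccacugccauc
mmu-miR-34a-5p: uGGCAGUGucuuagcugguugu
mmu-miR-34b-5p: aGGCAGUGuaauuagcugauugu

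The arrays were of similar brightness, with a median intensity of 125.1 to 132.6 and 19680 to 21412 detected probes each. Probe values correlated at 0.982 to 0.989 between arrays of a group and at 0.980 to 0.989 across groups. Among markers of the labelled tissue, 14 of 15 osteoblast genes were measured and all 14 were detected on all 6 arrays. Xist and Kdm5d, but not Uty, separated the arrays in another way than the groups did. Xist, which silences the X chromosome in females, had log2 intensities of 4.49, 5.05 and 5.12 in WT and of 4.70, 9.17 and 9.34 in TG. Kdm5d, a Y-linked demethylase gene, had 7.36, 7.01 and 6.99 in WT and 7.17, 4.69 and 4.43 in TG. By these transcripts TG replicates 2 and 3 carried a female pattern and the other 4 arrays a male one, so sex pattern and group overlap in part. Uty, another Y-linked gene, had a dim probe that was detected on all 6 arrays and read 6.07, 5.73 and 5.86 in WT and 5.36, 5.14 and 5.14 in TG. All TG arrays lay below all WT arrays, TG replicate 1 included, with a difference of -0.67 ± 0.14 (limma, unadjusted p = 0.00112, adjusted p = 0.9997). In the authors' deposited log2 values the Uty difference was -0.14. The male pattern named below rests on Xist and Kdm5d. The arrays of male pattern hold TG replicate 1 as their only TG array, so each difference over them sets that array against WT. A Kdm5d covariate likewise separates TG replicate 1 from the other TG arrays. Neither fit can tell sex pattern from that single array.

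Across the whole array no probe passed the adjusted threshold. limma called 0 of 20632 probes (0%) at an adjusted p under 0.05, while 710 (3.44%) had an unadjusted p under 0.05. All 11 collagen probes had an adjusted p of 0.9997, so every difference below failed the correction. Levels are normalised log2 intensities, differences are TG minus WT on that scale, and probes of a gene are numbered from the brightest.

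The type VI chains were abundant, and by their brightest probes the TG and WT means differed by less than the SD of the WT samples. The brightest probe of Col6a1, which encodes a chain of the microfilament core, read 14.50, 14.44 and 14.34 in WT and 14.45, 14.50 and 14.41 in TG. The groups overlapped, and WT replicate 1 and TG replicate 2 shared the highest reading. Means were 14.42 ± 0.08 in WT and 14.45 ± 0.04 in TG (SD, n = 3). The difference was 0.03 ± 0.11 (SE; limma, unadjusted p = 0.805), a fold of 1.02 with a 95% interval of 0.854 to 1.22. The other probes of Col6a1 gave differences of 0.08 ± 0.13 and 0.06 ± 0.18, and neither set the groups apart. The dim probe gave -0.25 over the arrays of male pattern and -0.21 with the Kdm5d covariate. Probe 2 read 13.72, 13.75 and 13.51 in WT and 13.66, 13.68 and 13.87 in TG, and the dim probe 3 read 8.25, 8.15 and 7.77 in WT and 7.81, 8.23 and 8.32 in TG.

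Col6a2, which encodes the partner chain, was as even. Its brightest probe read 12.38, 12.48 and 12.42 in WT and 12.39, 12.41 and 12.38 in TG, and the WT range enclosed every TG array. The difference was -0.03 ± 0.11 (unadjusted p = 0.761), a fold of 0.977 with a 95% interval of 0.823 to 1.16. A second probe, designed on a cDNA clone record, read 8.68, 8.38 and 8.44 in WT and 8.57, 8.77 and 8.45 in TG, with a difference of 0.10 ± 0.14. Of all tested probes, 0.349% had a lower SD over the 6 arrays than the bright Col6a2 probe and 2.05% a lower one than the bright Col6a1 probe. Both probes were also near the bright end of the array, with 2.46% and 0.364% of tested probes brighter. The intervals above are for intensity, and how intensity follows RNA amount at this brightness was not measured. Col6a1 and Col6a2 are neighbours on chromosome 10, with 0 protein-coding genes between them (RefSeq, GRCm38.p6). Their bright probes were too flat over the 6 arrays for a correlation between them to be read.

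**Figure D1:**
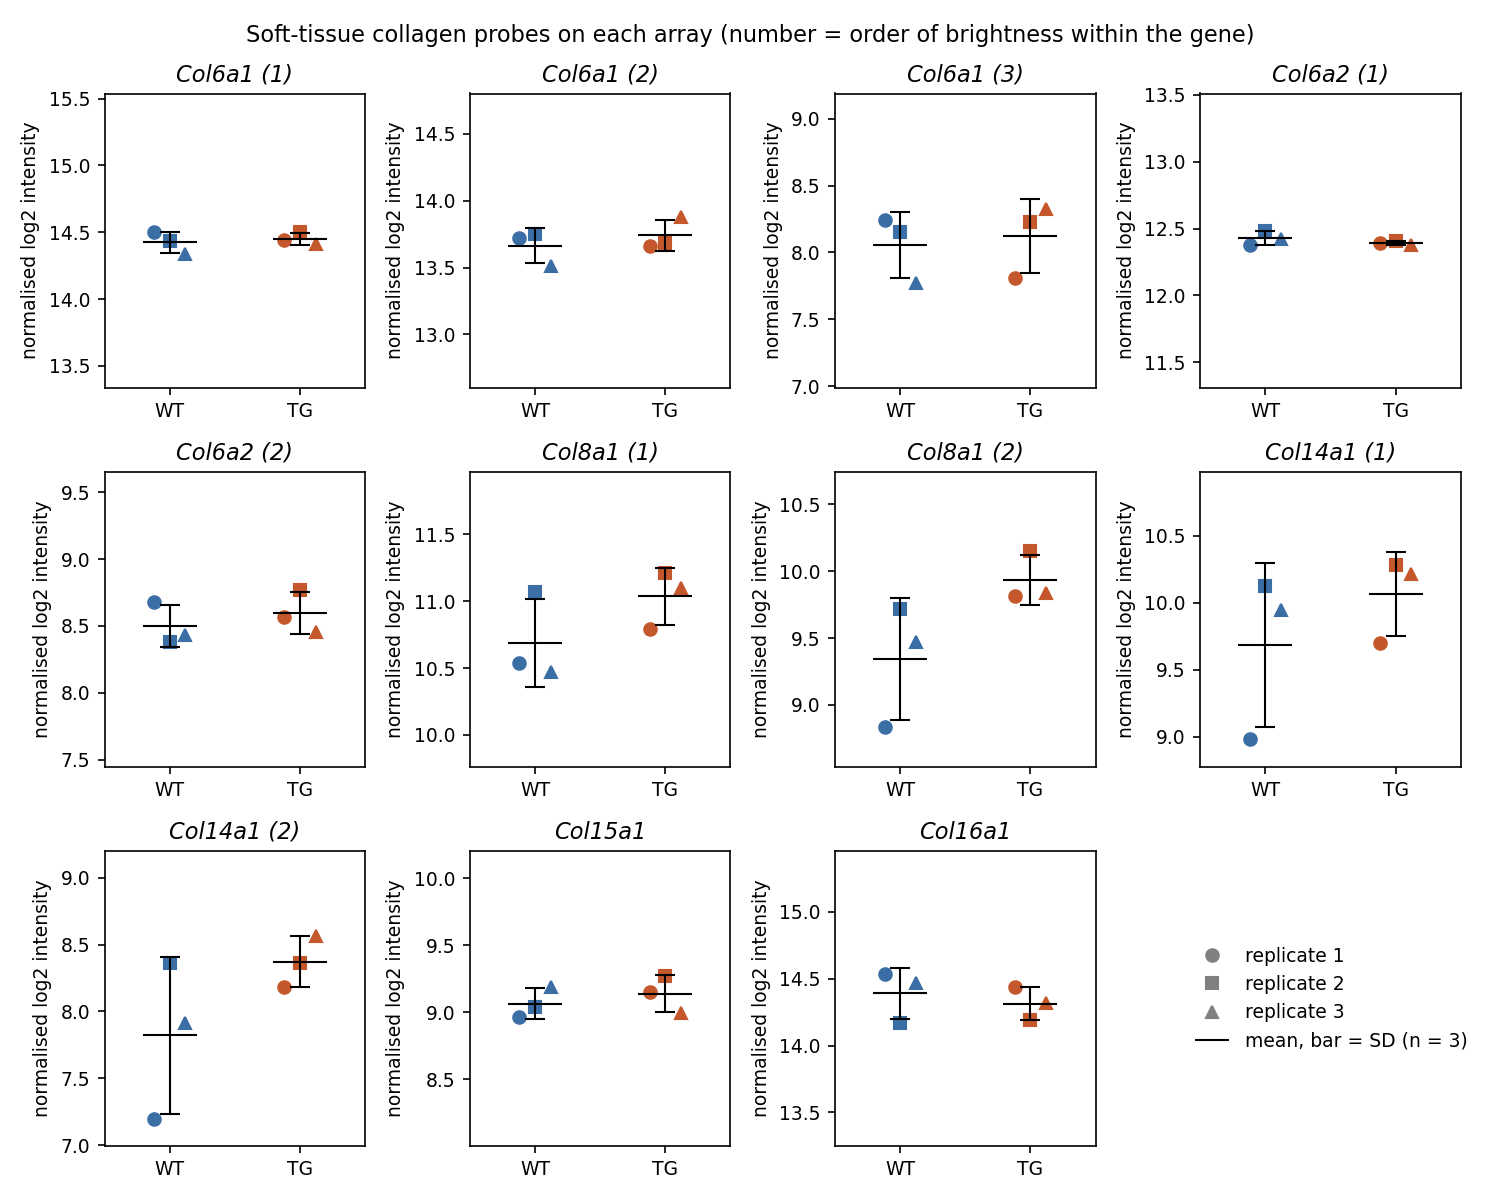
Normalised log2 intensity of each collagen probe on each of the 6 arrays, with WT and TG shown separately. Points are arrays, horizontal marks are group means and vertical bars are SDs (n = 3). The Col6a1, Col6a2 and Col16a1 probes overlap between groups, and the second Col8a1 probe, at 8.83 to 9.72 in WT and 9.82 to 10.15 in TG, is the one without overlap.

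Col14a1 and Col16a1, both fibril-associated collagens, differed in how much they varied. Type XIV collagen binds fibrils of dense connective tissue such as tendon and skin. The brighter Col14a1 probe, designed on a cDNA clone record, read 8.98, 10.12 and 9.95 in WT and 9.70, 10.28 and 10.21 in TG. WT replicate 1 was the lowest array, and the other WT arrays lay between TG replicate 1 and the remaining TG arrays. Means were 9.68 ± 0.61 in WT and 10.07 ± 0.32 in TG (SD, n = 3), a difference of 0.38 ± 0.30 (SE; limma, unadjusted p = 0.240) and a fold of 1.30 with a 95% interval of 0.806 to 2.11. The second probe read 7.19, 8.36 and 7.91 in WT and 8.18, 8.37 and 8.56 in TG, again with WT replicate 1 lowest and with overlapping groups. Its difference was 0.55 ± 0.27 (unadjusted p = 0.0793), a fold of 1.46 with a 95% interval of 0.945 to 2.27. Without WT replicate 1 the difference was 0.03 for the brighter probe and 0.24 for the second. Over the 4 arrays of male pattern it was 0.02 and 0.36, and with Kdm5d intensity as a covariate -0.05 and 0.28, so the brighter probe lost its direction in that fit. Without WT replicate 2 the brighter probe gave 0.60. With the mean level of muscle markers as a covariate the brighter probe gave 0.51 and the second 0.65.

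Type XVI collagen is found near the basement membrane zone and on fibrils of skin and cartilage. Col16a1 read 14.53, 14.17 and 14.47 in WT and 14.44, 14.19 and 14.31 in TG. The TG arrays all lay inside the WT range. The difference was -0.08 ± 0.14 (unadjusted p = 0.602), a fold of 0.949 with a 95% interval of 0.758 to 1.19. Only 0.422% of tested probes were brighter. The sign turned to 0.05 with the Kdm5d covariate and to 0.05 over the arrays of male pattern.

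Col8a1, the network-forming member, had the only probe whose groups did not overlap. Its brighter probe read 10.53, 11.07 and 10.47 in WT and 10.79, 11.21 and 11.10 in TG, and WT replicate 2 lay among the TG arrays. The difference was 0.35 ± 0.19 (SE; limma, unadjusted p = 0.109), a fold of 1.27 with a 95% interval of 0.935 to 1.73. The second probe read 8.83, 9.72 and 9.47 in WT and 9.82, 10.15 and 9.84 in TG. Every TG array was above every WT array, with TG replicate 1 and WT replicate 2 nearest to each other. Means were 9.34 ± 0.46 in WT and 9.94 ± 0.19 in TG (SD, n = 3). The difference was 0.59 ± 0.23 (unadjusted p = 0.0304), a fold of 1.51 with a 95% interval of 1.05 to 2.17. An exact two-sided permutation test gave p = 0.1, the smallest that 3 against 3 samples allow. Any probe without overlap gives this value, so the test adds nothing to the lack of overlap.

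The Col8a1 difference was positive for both probes but changed in size with single arrays. It was also smaller in the fits for sex pattern, which lean on TG replicate 1. Leaving out 1 array at a time gave 0.23 to 0.53 for the brighter probe and 0.34 to 0.78 for the second. The lowest value of the second probe came without WT replicate 1, and the ends of the brighter probe's range came without WT replicates 3 and 2. With the Kdm5d covariate the difference was 0.10 for the brighter and 0.43 for the second probe, and over the arrays of male pattern 0.10 and 0.47. It was larger, at 0.43 for the brighter and 0.67 for the second probe, with the mean level of muscle markers as a covariate. The mean of both probes gave 0.47. The part of sex in the difference was not tested, since only TG holds arrays of female pattern.

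Type XV collagen stabilises muscle and small vessels. Col15a1 read 8.97, 9.04 and 9.19 in WT and 9.15, 9.27 and 8.99 in TG, and the groups overlapped, with TG replicate 2 above every WT array. Means were 9.06 ± 0.11 in WT and 9.14 ± 0.14 in TG (SD, n = 3). The difference was 0.07 ± 0.13 (limma, unadjusted p = 0.579), a fold of 1.05 with a 95% interval of 0.858 to 1.29.

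**Figure D2:**
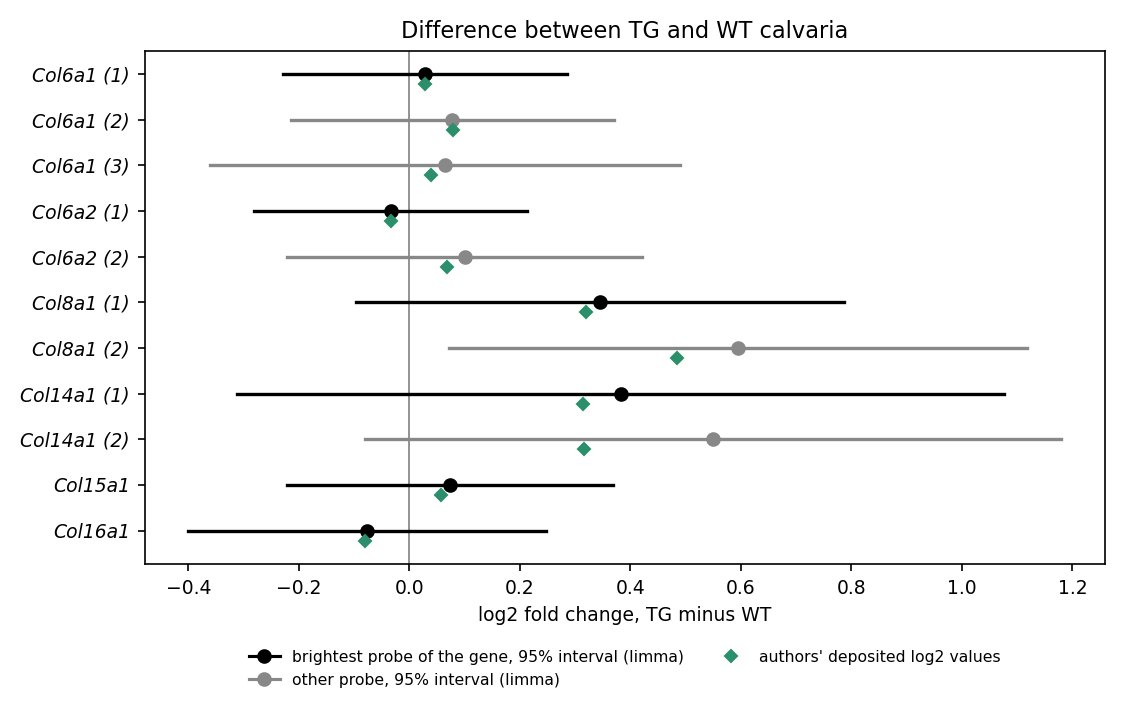
Log2 fold change, TG minus WT, of each collagen probe with its 95% confidence interval from limma, and diamonds for the authors' deposited log2 values. Every limma interval includes 0 apart from that of the second Col8a1 probe, which runs from 0.07 to 1.12.

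Counted over probes, 1 of 11 had an unadjusted p under 0.05, against 3.44% of all tested probes. Likewise 1 of 11 had groups without overlap and higher in TG, against 3.63%. Shares without overlap were counted for higher in TG only, the direction of that probe, and 1 probe of 11 is too few to compare. By the brightest probe, 0 of 6 genes had an unadjusted p under 0.05, against 2.53% of 11204 genes, and 0 of 6 had groups without overlap and higher in TG, against 3.34%. The median difference of the 6 genes was 0.05, with 4 positive and 2 negative, beside a median of -0.0014 over all genes. The 5th and 95th percentiles over all genes were -0.27 and 0.28, and Col8a1 and Col14a1 lay above the upper one. The mean of the 6 centred genes was -0.19, 0.05 and -0.03 in WT and -0.02, 0.14 and 0.06 in TG, so the groups overlapped in this mean too. RNA from whole tissue cannot tell fewer cells of a type from less RNA per cell, which applies to all of these values.

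The members differed in how much they varied from array to array. The Col14a1 probes were more variable over the 6 arrays than 96.8% and 97.0% of tested probes, and the Col8a1 probes more than 86.4% and 96.0%. The bright Col6a1, Col6a2 and Col16a1 probes and that of Col15a1 were steadier, with 0.349% to 35.1% of tested probes below them. Over the 6 arrays the probes of Col14a1 ran together (r = 0.929), as did those of Col8a1 (r = 0.796). The Col6a2 probes did not (r = -0.533), and their range was small. Between genes, Col8a1 and Col14a1 ran together (r = 0.727) and both ran opposite to Col16a1 (r = -0.903 and -0.797). These are descriptions over 6 arrays, which share tissue content and array brightness within each extract.

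Muscle and cartilage markers varied more from array to array than the mean of the collagens did. Muscle markers, 20 of 22 measured, 18 of them with negative differences, had a mean centred level of -0.46 to 1.03 in WT and -1.33 to 0.64 in TG, and their summed intensity ranged from 81397 to 194967 in WT and from 46511 to 155305 in TG. Cartilage markers, 15 of 16 measured, 14 of them with positive differences, ranged from -0.74 to 0.16 in WT and from -0.20 to 0.76 in TG, with summed intensities of 58857 to 116139 and 86244 to 129045. Neutrophil markers, 10 of 10 measured and all 10 with negative differences, ranged from -0.01 to 0.54 in WT and from -1.12 to 0.23 in TG. TG replicate 1, the only TG array of male pattern, was the lowest array for muscle (-1.33) and neutrophil markers (-1.12). TG replicates 2 and 3 were at 0.64 and 0.24 for muscle and at 0.23 and 0.09 for neutrophil markers. Of these lists only muscle was used as a covariate in a fit of the collagens. That fit gave 0.43 and 0.67 for the Col8a1 probes and 0.51 and 0.65 for the Col14a1 probes. No such fit was made for cartilage or neutrophil markers, and the cause of the shifts was not tested. Acta1, the muscle actin gene, had a difference of -0.36 ± 0.41, which was 0.14 without TG replicate 1. Col2a1, the main cartilage collagen gene, had one of 0.26 ± 0.20. Osteoblast markers had 6 positive and 8 negative differences and a median of -0.09, and Bglap, the osteocalcin gene, had -0.78 ± 0.17 (limma, unadjusted p = 0.00176, adjusted p = 0.9997). The other Bglap probe gave -0.96, and Bglap2 had -0.71 ± 0.21 (limma, unadjusted p = 0.0104, adjusted p = 0.9997). Meningeal markers had 4 positive and 3 negative differences, and every TG array was below every WT array for Ptgds, a prostaglandin synthase gene of the meninges, at -2.04 ± 0.50 (limma, unadjusted p = 0.00367, adjusted p = 0.9997). Endothelial markers had 4 positive and 5 negative differences. Sox17, an endothelial transcription factor gene, had -0.54 ± 0.14 by its brightest probe (unadjusted p = 0.00484, adjusted p = 0.9997), without overlap of the groups, and -0.07 by the other. In the authors' deposited log2 values the differences were -1.03 for Ptgds and -0.18 for Sox17. The counts of positive and negative differences were 3 and 5 for macrophage markers, 1 and 3 for erythroid, 0 and 3 for adipocyte, and 1 and 1 for epidermal markers.

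Fibroblast and periosteum markers, which mark tissues that these collagens are known from, were steadier. Of 20 listed, 19 had a tested probe, with a median difference of -0.01 and 9 above 0 against 10 below. Their mean centred level was -0.14, 0.11 and 0.04 in WT and -0.02, -0.01 and 0.03 in TG, and WT replicate 1 was lowest, as it was for Col14a1. Mfap4, a microfibril-associated glycoprotein gene, had a difference of 0.48 ± 0.21 (0.25 without WT replicate 1). Dpp4, a peptidase marking fascia fibroblasts, had -0.33 ± 0.16 (-0.21 without TG replicate 1, and -0.58 over the arrays of male pattern). Postn, the periostin gene of the periosteum, had 0.40 ± 0.19 by its brightest probe, without overlap of the groups, and -0.29 and -0.14 by the others. The brightest Postn probe was dim, with a mean of 6.80. Of the 19 markers, 2 were higher in TG without overlap, Postn among them, and 1 was lower. Over all genes 3.34% were higher in TG without overlap, and the counts are too few to compare. Without WT replicate 3 the brightest Postn probe gave 0.18. The authors' deposited log2 values gave 0.15 for this Postn probe and -0.08 for Dpp4. Dpt, the dermatopontin gene, had -0.12 ± 0.13, and 0.02 over the arrays of male pattern.

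Suture mesenchyme markers, 8 of 10 measured, had 4 positive and 4 negative differences and a median of 0.02. Six2, a transcription factor gene of suture mesenchyme, read 6.53, 6.85 and 6.73 in WT and 7.29, 7.21 and 6.90 in TG. All TG arrays were above all WT arrays, with a difference of 0.43 ± 0.15 (limma, unadjusted p = 0.0205, adjusted p = 0.9997). In the authors' deposited log2 values its difference was 0.18. Zic1 had 0.27 ± 0.18, and 0.11 without WT replicate 3. Tendon markers, 6 of 7 measured, had 4 positive and 2 negative differences and a median of 0.01, with Scx, a tendon transcription factor gene, at -0.28 ± 0.17, which was -0.10 without TG replicate 3 and -0.09 over the arrays of male pattern. Over the 6 arrays, the mean of the collagens followed the suture list (r = 0.88), the fibroblast list (r = 0.66) and the muscle list (r = 0.57), and ran opposite to the osteoblast list (r = -0.90). That mean is not scaled for spread, so Col14a1 (SD 0.48 over the 6 arrays) and Col8a1 (0.31) weigh most in it. The brightest probes of Col6a1, Col6a2, Col15a1 and Col16a1 had SDs of 0.04 to 0.15. Lists described below gave r = 0.73 for further non-fibrillar collagens, 0.56 for matrix partners and -0.56 for collagen processing and turnover. The lists share arrays and some genes, so these are descriptions only.

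**Figure D3:**
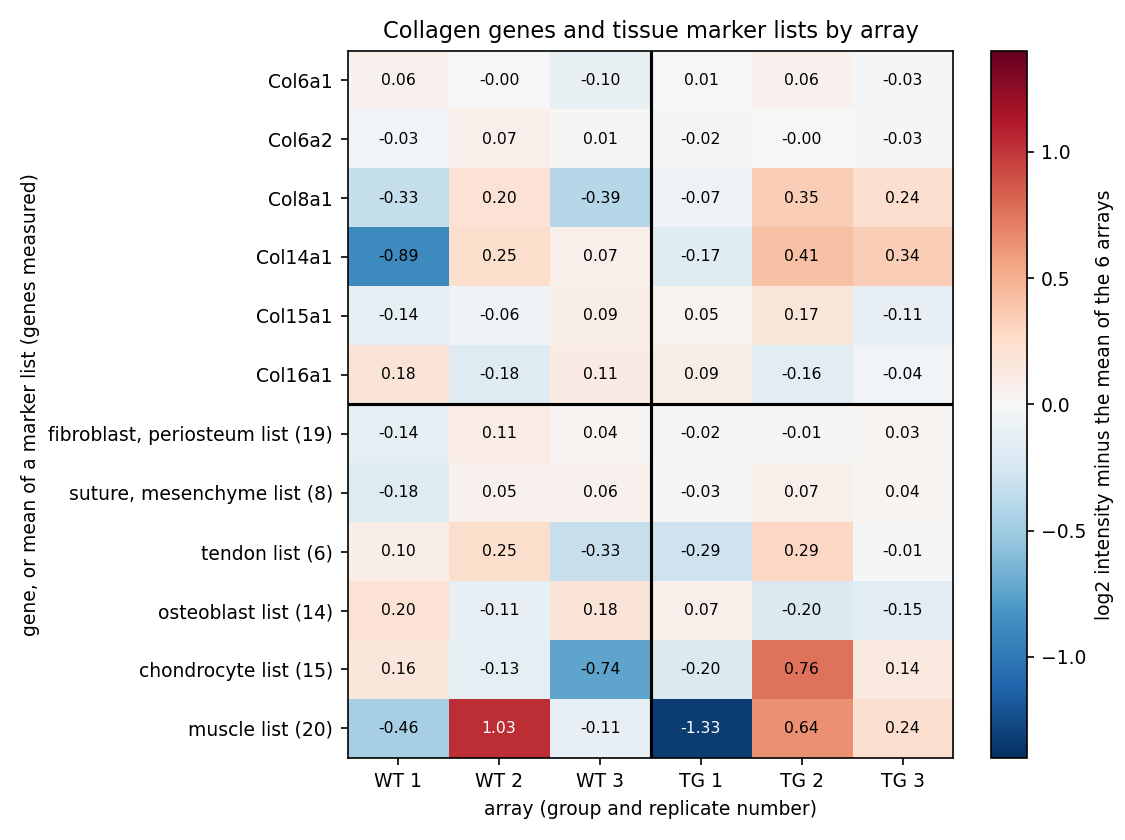
Heat map of log2 intensity minus the mean of the 6 arrays, for the brightest probe of each collagen gene and for the mean of each marker list (genes measured in brackets), with arrays as columns. Colour runs from blue below 0 to red above, and the muscle list, from -1.33 to 1.03, covers more of the scale than the fibroblast list, from -0.14 to 0.11.

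Of the other genes around these collagens, none passed the adjusted threshold. Of 19 further non-fibrillar collagen genes, 12 had a tested probe, 9 of them above and 3 below 0, with a median of 0.14. Col10a1, the collagen of hypertrophic cartilage, had the greatest spread, with 4.72, 7.51 and 4.90 in WT and 4.74, 11.35 and 8.86 in TG. It was detected on 1 WT array and on TG replicates 2 and 3, the arrays of female pattern, and the groups overlapped. Its difference of 2.61 ± 1.51 turned to -0.97 over the arrays of male pattern and to -0.77 with the Kdm5d covariate, and it was 1.09 without TG replicate 2 and 4.40 without TG replicate 1. Col17a1, a transmembrane collagen of epithelia, had 0.31 ± 0.16 by its brightest probe and -0.32 and -0.01 by the others. The brightest Col17a1 probe gave 0.08 in the authors' deposited log2 values.

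Collagen receptors, 9 of 13 measured, had 4 positive and 5 negative differences and a median of -0.02. Cspg4, which encodes the proteoglycan NG2 and binds type VI collagen, read 8.88, 8.64 and 8.67 in WT and 9.21, 9.26 and 8.87 in TG. TG replicate 3 lay just below WT replicate 1, and the difference was 0.38 ± 0.15 (limma, unadjusted p = 0.0311, adjusted p = 0.9997). Mrc2, the endocytic collagen receptor, had -0.17 ± 0.13, and -0.05 in the authors' deposited log2 values. Matrix partners, 17 of 19 measured, had 11 positive and 6 negative differences and a median of 0.04. Within them Matn2, a matrilin adaptor, had -0.27 ± 0.15 by its brighter probe (-0.14 without WT replicate 3) and 0.04 by the other. The brighter Matn2 probe gave -0.08 in the authors' deposited log2 values. Lum, the leucine-rich proteoglycan lumican, had -0.19 ± 0.14, and 0.01 over the arrays of male pattern. Genes of collagen processing and turnover, 9 of 11 measured, had 1 positive and 8 negative differences and a median of -0.08. The positive one was Pcolce2, an enhancer of procollagen C-proteinase, at 0.69 ± 0.38 (0.06 over the arrays of male pattern), while Bmp1, that proteinase, had -0.14 ± 0.13.

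**Figure D4:**
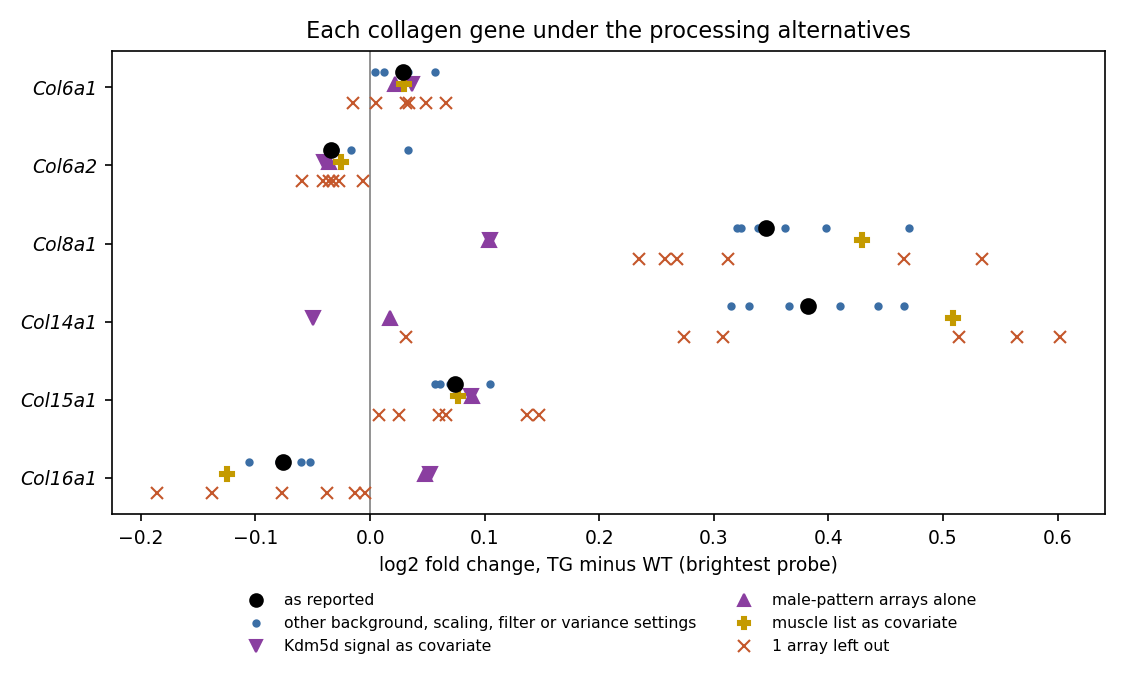
Log2 fold change, TG minus WT, of the 6 collagens by their brightest probe as reported and under each alternative processing, with arrays left out in turn. Col6a1, Col6a2 and Col15a1 stay between -0.06 and 0.15, whereas Col14a1 runs from -0.05 to 0.60 and Col8a1 from 0.10 to 0.53.

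Among 4369 named genes with an SD of at least 0.2 over the arrays, the 6 whose level was most like the mean of the collagens were Calml4 (r = 0.985), Lgr5 (r = 0.969), Mtrf1 (r = 0.965), Scn2b (r = 0.936), Arap2 (r = 0.936) and Gphn (r = 0.932). Each correlation is over 6 arrays and is a description of genes picked for the highest values, without a test. Col14a1 and Col8a1 weigh most in the mean used.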

How the data were processed

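Total RNA of 3 WT and 3 TG calvaria was measured on bead arrays. The authors deposited, per the file headers, a linear intensity and a detection p-value for each probe and array, without normalisation. The authors also deposited normalised log2 values of the same arrays. The submitters' processing notes name lumi. Its version and settings are not given in those sources. Per the file headers, a control block gives the arrays replicate numbers and an age that differ from the labels. The probe table's columns were used under the labels' names, and the discrepancy is unresolved.

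With limma 3.58.1 in R 4.3.3, the normexp background step used 936 negative controls and an offset of 16, and quantile normalisation followed on log2 values. The filter asked for detection (p-value under 0.05) on 3 or more of the 6 arrays, and surviving probes were tested, without covariates, by linear models with empirical Bayes moderation and two-sided Benjamini-Hochberg adjustment over all 20632. A gene was represented by its brightest probe, and the procedure was tested on simulated data. Symbols came from the platform annotation. The number of arrays limits the precision. The members and lists were chosen with earlier results of these data known. Named genes are all members, up to 2 genes of the smallest p from each list, the 6 genes most like the collagen mean and fixed tissue and sex markers.

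The alternatives were other background, normalisation, filter, offset and variance settings, array weights, the authors' values, a replicate block, sex-pattern and muscle adjustments, the mean of a gene's probes, and leaving out each array.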

Additional observations from a re-analysis of the deposited data

How the results depend on the processing

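Under every alternative tried, 0 of the collagen probes passed an adjusted p of 0.05. Over the whole array the count of called probes was 0 to 2 when arrays were left out in turn. The 2 appeared without TG replicate 1 and were Xist and Kdm5d, which are among the fixed sex markers. The remaining TG arrays then both had the female pattern. Collagen probes with an unadjusted p under 0.05 numbered 1 as reported and 0 to 4 across alternatives, with 0 without WT replicate 1 or TG replicate 2, 0 with the Kdm5d covariate or over the arrays of male pattern, 3 without WT replicate 2 and 4 with the muscle list as a covariate. With the Kdm5d covariate, the difference was -0.049 for Col14a1, 0.052 for Col16a1, -0.21 for Col6a1 probe 3, -0.77 for Col10a1 and 0.00926 for Dpt. Over the arrays of male pattern, it was 0.048 for Col16a1, -0.00037 for Col6a1 probe 2, -0.25 for Col6a1 probe 3, -0.97 for Col10a1, 0.013 for Lum and 0.019 for Dpt. The mean of a gene's probes gave 0.033 for Col6a2, -0.0087 for Col17a1 and -0.010 for Postn. Leaving out 1 array gave -0.015 to 0.066 for Col6a1, -0.077 to 0.22 for its probe 3, -0.057 to 0.34 for Fmod and -0.68 to 0.14 for Acta1. The cause of these shifts was not tested.

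With the replicate number as a block, 3 collagen probes had an unadjusted p under 0.05, against 1 without it, and none passed the adjusted threshold. Deviations of same-numbered arrays correlated at 0.26, 0.15 and -0.17, so the numbers were not taken to pair the samples. Groups of 3 limit what size of difference can be seen, and saturation of bright beads was not measured.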

Other observations

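The genes whose level ran most opposite to the mean of the 6 collagens over the 6 arrays, looked up after the values were seen, were Nuak2 (r = -0.991), Fam171a1 (r = -0.984) and Strada (r = -0.983). Ccn4, a matricellular gene of bone, had r = -0.965. These are values without a test, and Col14a1 and Col8a1 weigh most in the mean used.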
